A study of Mus musculus with 6 samples.

Results

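The noncanonical Wnt and planar polarity genes were followed in dental epithelium dissected from mandibular first molars (M1) at PN2.5, as 10 genes chosen by name among the 55487 genes of the deposited table. They are the ligand genes *Wnt5a*, *Wnt5b* and *Wnt11*, the receptor genes *Ror1*, *Ror2* and *Ryk*, and the core planar cell polarity genes *Vangl1*, *Vangl2*, *Celsr1* and *Prickle1*. RNA-seq covered 3 control libraries, from Wnt10a fl/fl mice, and 3 cKO libraries, from K14-Cre;Wnt10a fl/fl mice. All mice carried the floxed *Wnt10a* alleles, and the cKO mice also carried Cre recombinase under the keratin 14 promoter, which acts in epithelial cells and not in the dental mesenchyme. Each library was a pool of dental epithelium from several molars, and the values are TPM, a measure of transcript abundance scaled to a fixed sum in each library, which correct for transcript length but do not keep the sequencing depth. The pools are called biological replicates, but the labels do not tie them to individual animals, so the p-values measure the spread between these pools.

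Wnt ligands of this group act mainly without stabilising β-catenin. Wnt5a binds Ror receptor tyrosine kinases and the receptor Ryk, and the response reaches the cytoskeleton through Dishevelled and small GTPases. Core planar polarity proteins form complexes at opposite sides of each epithelial cell and align cell shape, movement and division within the plane of a sheet. Among these proteins are the membrane proteins Vangl and Celsr and the cytoplasmic protein Prickle. In teeth, Wnt5a is known mostly from the dental mesenchyme, and Vangl2 and Celsr1 from epithelia such as skin. The comparison bears on whether loss of epithelial *Wnt10a* goes with a change in the RNA of these genes, since the study also looked at the orientation of cell division in the inner enamel epithelium.

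The targeted gene checks the labels. *Wnt10a* was at 56.0, 51.2 and 57.9 TPM in control replicates 1, 2 and 3 and at 22.7, 21.8 and 32.2 TPM in the cKO replicates, a log2 fold change of -1.10 (standard error 0.19). Between 20185 and 23203 genes were above 0 in a library, and the 2 libraries with the fewest were control replicate 3 and cKO replicate 3. Epithelial markers were present throughout, with means of 2494 ± 292 (control) and 2430 ± 280 TPM (cKO) for *Krt14* (SD, n = 3). *Krt5* was at 2979 ± 779 TPM in the control and 2427 ± 695 TPM in the cKO (SD, n = 3), a log2 fold change of -0.30 with overlap. Of the 6 epithelial markers, 5 were lower on average in the cKO and *Epcam* was higher (log2 fold change 0.38). None of the 6 met the criteria given below. Markers of other tissues were present as well. The 10 dental mesenchyme and odontoblast markers, led by *Col1a1* and *Col1a2*, summed to between 3569 and 7067 TPM in the control and between 4539 and 5144 TPM in the cKO. The 4 endothelial markers summed to between 48.1 and 85.1 TPM in the control and between 35.4 and 60.6 TPM in the cKO, where *Cdh5* met the criteria given below (log2 fold change -0.77). The 6 blood and immune markers summed to between 785 and 1027 TPM in the control and between 615 and 749 TPM in the cKO, without overlap. The hemoglobin genes *Hbb-bs* and *Hba-a1* led that sum, with control means of 641 and 266 TPM, and *Hbb-bs* met the criteria (log2 fold change -0.43). The immune markers were low, with *Ptprc* below 1 TPM in all libraries and overlap between the groups for *Csf1r* and *Cd68*. The 6 ameloblast markers, led by *Amelx* and *Ambn*, were all lower on average in the cKO, and none met the criteria, although *Ambn* had no overlap. They summed to between 199900 and 239100 TPM in the control and to 191000, 95860 and 208300 TPM in cKO replicates 1, 2 and 3, so that cKO replicate 2 stood apart. The nerve and glia markers summed to between 106 and 119 TPM in the control and between 90.0 and 139 TPM in the cKO, and each of the 4 skeletal muscle markers stayed below 1 TPM in all libraries. The part of these markers in the results that follow was not tested. The values are from bulk tissue, so fewer cells of a type and less RNA per cell cannot be told apart.

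RNA of all 10 genes was detected in the control libraries, and the mean levels spanned from *Celsr1* to *Ror1*. These libraries also held markers of other tissues, so the values do not place a gene in epithelial cells. On the TPM scale, the control means were 160 ± 25.5 for *Celsr1*, 125 ± 16.8 for *Vangl2* and 75.1 ± 9.60 for *Ryk* (SD, n = 3). *Ryk* lay above 90.3% and *Celsr1* above 95.7% of the 13719 genes that had a mean of at least 1 TPM. The order went on with *Wnt5a* at 33.4 ± 4.82, *Prickle1* at 22.3 ± 2.41, *Vangl1* at 15.7 ± 3.50, *Wnt11* at 13.4 ± 3.26, *Ror2* at 12.6 ± 2.56, *Wnt5b* at 9.11 ± 0.772 and *Ror1* at 8.72 ± 2.71 TPM (SD, n = 3). *Vangl2* thus stood well above its paralog *Vangl1*, and *Wnt5a* above *Wnt5b*. *Ror2* lay above 51.4% and *Ror1* above 41.8% of the same 13719 genes. Neighbours in this order whose control ranges overlapped were *Celsr1* and *Vangl2*, *Vangl1* and *Wnt11*, *Wnt11* and *Ror2*, and *Wnt5b* and *Ror1*. The other neighbours were apart in every control library. The cKO order differed only at its end, where *Ror1* and *Wnt5b* changed places, and their ranges overlapped in both groups. The 10 genes together made up between 0.0417% and 0.0513% of a control library and between 0.0320% and 0.0485% of a cKO library.

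**Figure D1:**
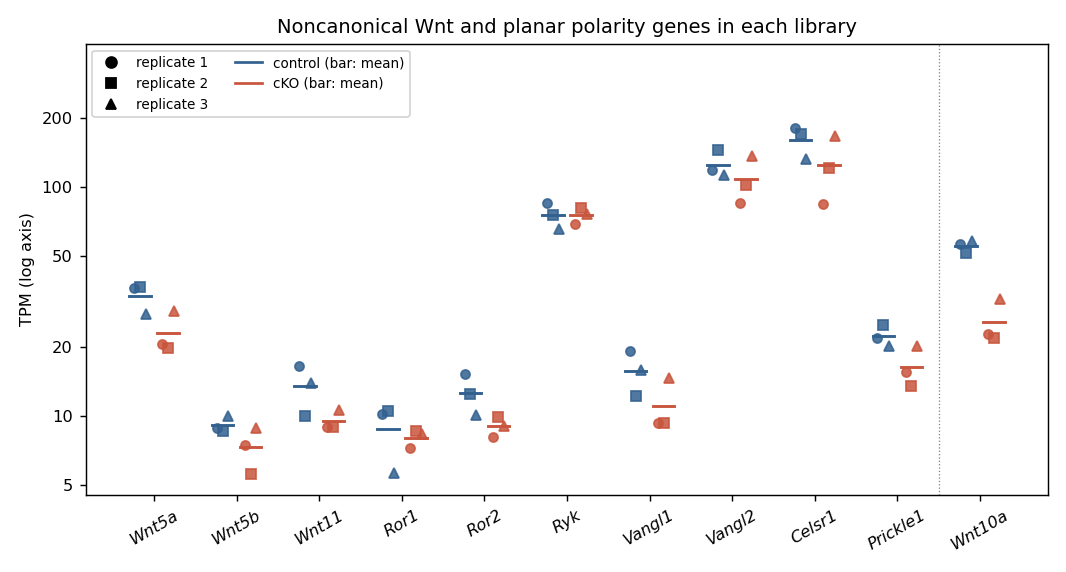
Levels of the 10 genes and of *Wnt10a*, which stands apart on the right, in TPM on a log axis. Each symbol is 1 library, with control in blue and cKO in red, and the bars are group means. *Ror2*, *Prickle1* and *Wnt10a* have no overlap between the groups, whereas the *Ryk* means lie at 75.12 and 75.02 TPM.

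In the cKO libraries, 9 of the 10 genes had a lower fitted mean, and 1 of them, *Wnt5a*, met the criteria for differential expression, a limma p below 0.05 before adjustment and a mean more than 20% away from that of the control. P-values from limma given without the word adjusted are before adjustment. Over all 13719 genes tested, 4.02% met these criteria and 60.3% had a lower fitted mean in the cKO. None of the 10 had a Benjamini-Hochberg adjusted p below 0.05 over all genes tested, where limma left 2 genes (0.0146%). The targeted gene *Wnt10a* was not among these, with limma p of 0.000653 and adjusted p = 0.747. The members' lowest adjusted p was 1.00, and the unadjusted p was below 0.05 for *Wnt5a* alone. *Ror2* and *Prickle1* had no overlap between the groups, 2 of 10 genes against 9.64% of all genes tested. The median log2 fold change of the 10 genes was -0.42, and that of all genes tested was -0.07. Which genes met the criteria depended on single libraries. Without cKO replicate 3 they were *Wnt5a*, *Vangl1*, *Celsr1* and *Prickle1* (4 of 10, with 951 of 13719 over all genes), without control replicate 3 *Wnt5a* and *Ror2* (2 of 10, with 1159 of 13719), and without control replicate 2 *Wnt11* alone (1 of 10, with 369 of 13719). Without control replicate 1, cKO replicate 1 or cKO replicate 2 none did, with 237, 204 and 282 of 13719 over all genes. The lower mean was seen in 7 to 10 of the 10 genes across all fits, the fewest after the correction for transcript length.

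Among the ligands, *Wnt5a* fell. Control replicates 1, 2 and 3 had 36.1, 36.3 and 27.8 TPM, whereas the cKO replicates, in the same order of numbers, had 20.6, 19.8 and 28.6 TPM. The groups overlapped because cKO replicate 3 exceeded control replicate 3. Relative to the control mean of 33.4 ± 4.82 TPM the cKO mean of 23.0 ± 4.83 TPM (SD, n = 3) was 68.8%. The log2 fold change on the log2(TPM + 1) scale was -0.53 (standard error 0.21), with limma p of 0.0367 and adjusted p = 1.00. The two-sided exact permutation test of the TPM gave p = 0.2, where 3 against 3 libraries cannot go below 0.1. The call was lost without control replicate 1, control replicate 2, cKO replicate 1 or cKO replicate 2, with log2 fold changes of -0.47, -0.46, -0.46 and -0.43 and limma p of 0.114, 0.096, 0.106 and 0.112. It was also lost with quantile normalization (limma p of 0.064) and median-ratio scaling (limma p of 0.0737), and with the correction for transcript length described below.

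*Wnt11*, whose product acts in convergent extension movements of embryos, was at 16.5, 9.97 and 13.8 TPM in control replicates 1, 2 and 3 and at 8.96, 8.94 and 10.6 TPM in the cKO replicates. Only control replicate 2 lay among the cKO libraries. Its log2 fold change was -0.43 (standard error 0.22, limma p of 0.0919). With control replicate 2 left out, it met the criteria (log2 fold change -0.62, limma p of 0.0236), and with control replicate 1 left out the change was -0.28 (limma p of 0.302). *Wnt5b*, the close paralog of *Wnt5a*, was at 8.79, 8.55 and 9.99 TPM in the control and at 7.41, 5.56 and 8.86 TPM in the cKO replicates, and the groups overlapped (log2 fold change -0.31, standard error 0.22, limma p of 0.199). Without cKO replicate 2 the *Wnt5b* change was -0.15 (limma p of 0.521). *Fbxl14*, at 8.66 to 10.7 TPM, lies on the opposite strand within the *Wnt5b* locus, and the sources used here do not state whether reads were counted by strand. The gene *Gm2670*, antisense to *Wnt5a*, did not exceed 0.88 TPM in any library.

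The noncanonical ligands had a lower mean share of the Wnt ligand RNA in the cKO. *Wnt5a*, *Wnt5b* and *Wnt11* together made up 12.5%, 11.8% and 10.1% of the TPM summed over the 19 Wnt ligand genes in control replicates 1, 2 and 3, and 9.78%, 8.46% and 8.88% in the cKO replicates. The groups did not overlap, and the means were 11.5% ± 1.20 and 9.04% ± 0.671 (SD, n = 3; two-sided exact permutation test, p = 0.1, which no difference between 3 and 3 libraries can go below). *Wnt10a*, itself lower in the cKO, is in that sum. With *Wnt10a* left out of it, the shares were 12.9% ± 1.35 and 9.60% ± 0.740 (SD, n = 3; two-sided exact permutation test, p = 0.1). *Wnt5a* alone held 6.86% ± 1.23 in the control and 5.21% ± 0.289 in the cKO (SD, n = 3), apart by a narrow margin (5.46% in control replicate 3 and 5.45% in cKO replicate 1), whereas the shares of *Wnt5b* and *Wnt11* overlapped between the groups. After the correction for transcript length the combined share was 11.0% in the control and 9.45% in the cKO over the 12 ligand genes tested, now with overlap (two-sided exact permutation test, p = 0.3). *Wnt6*, the most abundant ligand, was at 218 ± 7.17 TPM in the control and 231 ± 38.5 TPM in the cKO (SD, n = 3), with a log2 fold change of 0.07. The comparison of shares was added after the data were examined.

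Among the receptors, the *Ror* genes, which encode receptor tyrosine kinases for Wnt5a, differed in how they separated the groups. *Ror2* was at 15.2, 12.5 and 10.1 TPM in control replicates 1, 2 and 3 and at 8.04, 9.88 and 9.02 TPM in the cKO replicates. Every cKO library lay below every control library, the nearest being control replicate 3 and cKO replicate 2. The log2 fold change was -0.43 (standard error 0.21, limma p of 0.0766), and p was 0.1 by two-sided exact permutation. *Ror2* met the criteria without control replicate 3 (log2 fold change -0.57, limma p of 0.0349) and with the TPM of protein-coding genes rescaled after *Amelx* and *Ambn* were taken out (-0.49, limma p of 0.0406). Without control replicate 1 the *Ror2* change was -0.295 (limma p of 0.263). *Ror1* was at 10.1, 10.4 and 5.59 TPM in the control and at 7.22, 8.57 and 8.28 TPM in the cKO replicates, so that control replicate 3 was the lowest of the 6 libraries and the other control libraries the highest. Its log2 fold change was -0.07, with a 95% confidence interval from limma of -0.68 to 0.55. The sign of that change turned with quantile normalization and after the length correction.

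The promoters of *Ror2* and *Prickle1* are shown because these are the 2 genes without overlap, and that of *Ror1*, whose groups overlapped, is shown as the paralog of *Ror2*. The sequences are from RefSeq (GRCm38.p6), run 5′ to 3′ on the strand of the gene, and cover 250 bases before and 50 bases after a transcription start. Capitals mark the core of the TCF/LEF motif, CTTTGA or CTTTGT on either strand.
Ror2, chr13:53286075-53286374, reverse strand: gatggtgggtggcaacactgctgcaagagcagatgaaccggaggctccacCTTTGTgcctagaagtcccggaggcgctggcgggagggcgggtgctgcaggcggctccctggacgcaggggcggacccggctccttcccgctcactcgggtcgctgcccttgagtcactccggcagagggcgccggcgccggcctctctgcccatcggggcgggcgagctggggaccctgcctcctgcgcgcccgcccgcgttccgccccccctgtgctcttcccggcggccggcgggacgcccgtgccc
Ror1, chr4:100095541-100095840, forward strand: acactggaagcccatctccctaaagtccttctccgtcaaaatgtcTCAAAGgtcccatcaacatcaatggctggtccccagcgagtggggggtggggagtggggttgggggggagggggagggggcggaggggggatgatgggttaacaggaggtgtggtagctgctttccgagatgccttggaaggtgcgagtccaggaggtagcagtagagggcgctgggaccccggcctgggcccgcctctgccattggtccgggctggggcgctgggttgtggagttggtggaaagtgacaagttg
Prickle1, chr15:93595853-93596152, reverse strand: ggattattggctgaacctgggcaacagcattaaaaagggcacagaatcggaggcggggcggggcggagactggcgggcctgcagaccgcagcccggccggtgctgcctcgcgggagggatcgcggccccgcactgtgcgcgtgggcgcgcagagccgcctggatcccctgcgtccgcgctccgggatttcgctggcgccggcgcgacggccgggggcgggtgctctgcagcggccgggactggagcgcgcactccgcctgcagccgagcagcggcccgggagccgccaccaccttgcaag
Counted from the transcription start, the core begins at position -200 in *Ror2*, on the strand of the gene, and at -205 in *Ror1*, on the opposite strand. The *Prickle1* window holds none. The promoter table had 11 windows for 7 of the 10 genes, *Prickle1*, *Ror1*, *Ror2*, *Ryk*, *Vangl2*, *Wnt11* and *Wnt5b*. Of these windows, 4 held the core, against 31.2% of the 32851 promoters in the table, and 2 held a TATA box (TATAAA on either strand), against 13.6%. The 3 windows printed hold 32, 10 and 39 CpG dinucleotides for *Ror2*, *Ror1* and *Prickle1*, and the median over the 11 windows was 23, against 7 over all promoters. Such a match describes the sequence and does not show that a factor binds there.

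The third receptor, *Ryk*, is an atypical kinase that also binds Wnt5a, and it was the member with the least difference between the groups. It was at 84.7, 75.2 and 65.5 TPM in control replicates 1, 2 and 3 and at 69.0, 80.4 and 75.7 TPM in the cKO replicates. All 3 cKO libraries lay within the control range. The log2 fold change was 0.00 (0.003, standard error 0.16), with a 95% confidence interval from limma of -0.37 to 0.38. With 3 pools a group, changes of either sign within that interval are not excluded.

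Ratios within a library hardly move with the scaling of that library, and 5 of them were compared as log2 ratios of (TPM + 1). Between genes of unlike transcript length, a ratio can still carry the length trend described below. That of *Ror2* to *Ror1* was 0.54, 0.24 and 0.75 in control replicates 1, 2 and 3 and 0.14, 0.19 and 0.11 in the cKO replicates. On the TPM scale *Ror2* thus exceeded *Ror1* in all 6 libraries, by 1.20 to 1.80 times in the control and by 1.09 to 1.15 times in the cKO. The difference of -0.36 was without overlap (two-sided exact permutation test, p = 0.1, adjusted p = 0.5 over the 5 ratios), and it was -0.38 after the length correction. The log2 ratio of *Vangl2* to *Vangl1* was 2.93 ± 0.473 in the control and 3.18 ± 0.134 in the cKO (SD, n = 3; two-sided exact permutation test, p = 0.5, adjusted p = 0.833). The ratios of *Wnt5a* to *Wnt5b*, to *Wnt11* and to *Ror2* differed by -0.22, -0.09 and -0.10 (two-sided exact permutation tests, p = 0.3, 0.9 and 0.7), and the groups overlapped in each. After the length correction these differences were -0.04, 0.000144 and -0.04. The balance between *Wnt5a* and its receptor gene *Ror2* therefore differed by less than the spread between libraries.

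**Figure D2:**
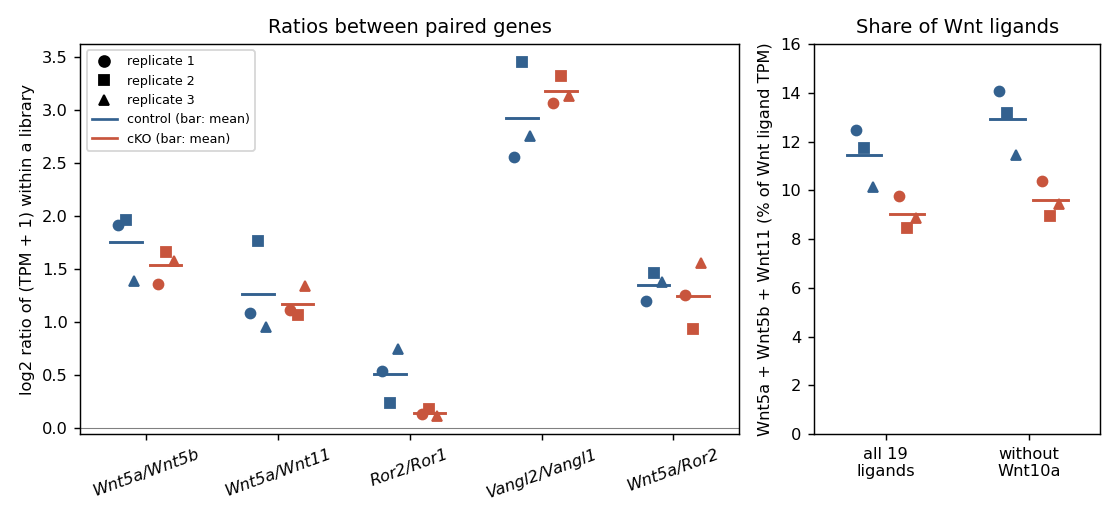
Left, the log2 ratio of (TPM + 1) between paired genes within each library. Right, the summed TPM of *Wnt5a*, *Wnt5b* and *Wnt11* as a percentage of all Wnt ligand TPM. Each symbol is 1 library and bars are group means. The *Ror2* to *Ror1* ratio (0.51 and 0.14 on average) and the ligand share (11.5% and 9.04%) have no overlap between control and cKO, and the other ratios do.

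Among the core polarity genes, *Prickle1*, whose product binds Vangl proteins at the membrane, separated the groups by a narrow margin. It was at 21.8, 24.9 and 20.2 TPM in control replicates 1, 2 and 3 and at 15.5, 13.4 and 20.1 TPM in the cKO replicates. The gap between control replicate 3 and cKO replicate 3 was much smaller than the spread within either group. The log2 fold change was -0.44 (standard error 0.20, limma p of 0.0634), and p was 0.1 by two-sided exact permutation. Without cKO replicate 3, *Prickle1* met the criteria (log2 fold change -0.59, limma p of 0.0251), and without cKO replicate 2 the change was -0.32 (limma p of 0.186).

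*Celsr1* encodes a large cadherin with several transmembrane passes that joins the polarity complexes of neighbouring cells. It was at 180, 170 and 132 TPM in control replicates 1, 2 and 3 and at 84.2, 121 and 167 TPM in the cKO replicates, the widest range of the 10 genes at 2.13 times. The cKO libraries alone spanned almost that whole range, and cKO replicate 3 lay above control replicate 3. The log2 fold change was -0.41 (standard error 0.27, limma p of 0.164), and it was -0.65 (limma p of 0.0304) without cKO replicate 3 and -0.16 without cKO replicate 1. *Vangl2*, the main Van Gogh homolog in this tissue, was at 118, 144 and 113 TPM in the control and at 84.99, 102 and 137 TPM in the cKO replicates. The groups overlapped, with cKO replicate 3 again among the control libraries (log2 fold change -0.23, standard error 0.21, limma p of 0.311). The *Vangl2* change was -0.41 without cKO replicate 3 and -0.07 without cKO replicate 1. *Vangl1* was at 19.2, 12.2 and 15.8 TPM in the control and at 9.25, 9.26 and 14.6 TPM in the cKO replicates. Its log2 fold change of -0.48 (standard error 0.25, limma p of 0.0991) became -0.68 (limma p of 0.0342) without cKO replicate 3 and -0.33 (limma p of 0.298) without control replicate 1.

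**Figure D3:**
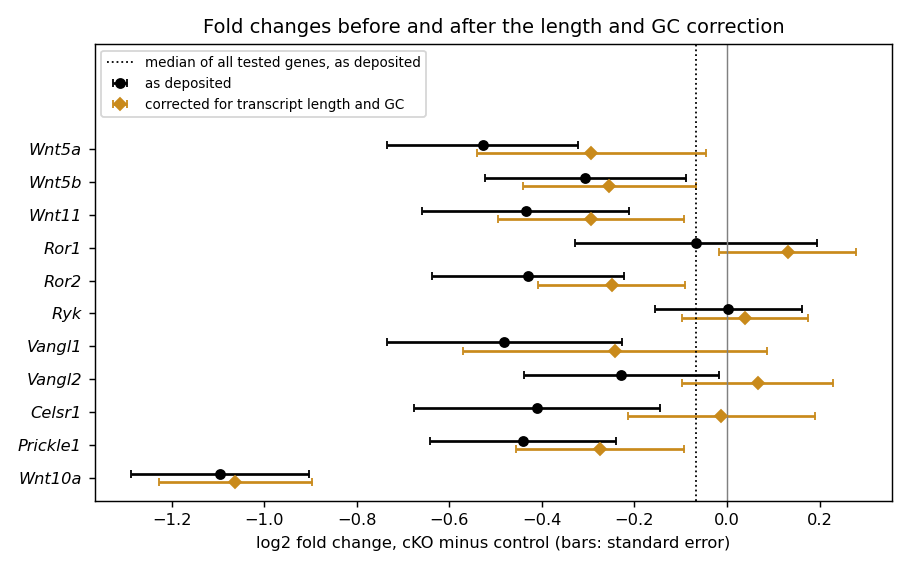
Log2 fold changes of the 10 genes and *Wnt10a*, cKO minus control, with standard errors from limma. Black points are the TPM as deposited, and orange points are the values corrected for length and GC. *Wnt10a* stays near -1.1 under both, whereas *Celsr1* moves from -0.41 to -0.01 and *Vangl2* from -0.23 to 0.07.

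The libraries of one group were not alike for these genes. Of the 10 genes, cKO replicates 1 and 2 each lay below every control library in 8, and cKO replicate 3 in 2. Over all genes tested, these shares were 32.3%, 17% and 28.5% for cKO replicates 1, 2 and 3. Control replicate 1 was the highest of the 6 libraries for 5 genes and control replicate 2 for 4, whereas control replicate 3 was the highest for *Wnt5b* only and the lowest for *Ror1* and *Ryk*. Each lowest value of the other 8 genes was in cKO replicate 1 or 2, with 4 genes each. The median deviation from a gene's mean over the libraries was 0.33, 0.26 and -0.002 on the log2 scale in control replicates 1, 2 and 3 and -0.32, -0.24 and 0.07 in the cKO replicates. The median deviation was thus small in replicate 3 of both groups. In control replicate 3 this median stood for genes on both sides, with 5 of the 10 below their own mean. The summed mesenchyme markers, 7067, 4501 and 3569 TPM in the control and 4539, 5144 and 4737 TPM in the cKO replicates, were highest in control replicate 1 as well, and their part in these differences was not tested.

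Transcript length moved with the fold changes. In the GENCODE annotation of GRCm38, the longest transcripts of the 10 genes run from 2371 bases for *Wnt5b* to 10879 bases for *Celsr1*, and 8 of the 10 exceed the median of 3403 bases over the tested protein-coding genes. The longest loci by annotation were *Ror1* (chr4:100095791-100444765, 9 exons in the longest transcript) and *Ror2* (chr13:53109312-53286124, 9 exons). *Wnt5a* lies at chr14:28504750-28527448 (5 exons), *Celsr1* at chr15:85898929-86033777 (35 exons), *Prickle1* at chr15:93499114-93595891 (8 exons) and *Vangl2* at chr1:172000960-172028444 (9 exons). Over the 12193 tested protein-coding genes, Spearman's correlation between length and log2 fold change was -0.48, a description across genes that share the 6 libraries. When those genes were divided into 10 bins by length, the median log2 fold change went from 0.17 in the shortest to -0.30 in the longest, the bin that holds *Wnt5a* and *Celsr1*. *Vangl2*, at -0.23, was close to the median of its bin, -0.22, and *Ror1* and *Ryk* were above theirs. *Wnt5b*, *Wnt11*, *Ror2*, *Prickle1*, *Vangl1*, *Wnt5a* and *Celsr1* were below theirs. The trend differed between libraries of one group. The median deviation of the longest minus that of the shortest genes was 0.29, 0.73 and -0.32 on the log2 scale in control replicates 1, 2 and 3 and -0.26, -0.06 and -0.32 in the cKO replicates, so control replicate 3 resembled the cKO libraries in it.

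**Figure D4:**
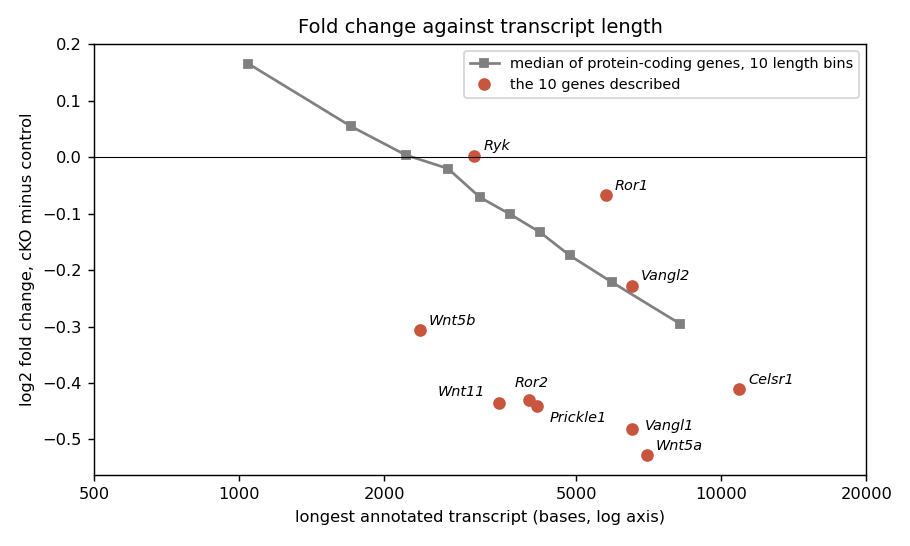
Log2 fold change, cKO minus control, against the length of the longest annotated transcript in bases on a log axis. The grey line joins the medians of protein-coding genes in 10 length bins, from 0.17 to -0.30, and the red points are the 10 genes. *Vangl2* lies on the line, and *Ryk* and *Ror1* lie above it.

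Each library was then corrected for the length and GC content of transcripts. After this, 7 of the 10 genes had a lower mean in the cKO, against 49.6% of the 13707 genes covered, and none met the criteria, against 4.52%. The median log2 fold change of the 10 genes was -0.25, and that of all genes was 0.00. The corrected log2 fold changes were -0.29, -0.25 and -0.29 for the ligands *Wnt5a*, *Wnt5b* and *Wnt11*, and -0.25, 0.13 and 0.04 for the receptors *Ror2*, *Ror1* and *Ryk*. Those of the polarity genes were -0.27 for *Prickle1*, -0.24 for *Vangl1*, -0.01 for *Celsr1* and 0.07 for *Vangl2*. The limma p ran from 0.162 for *Ror2* to 0.953 for *Celsr1*. The 2 most abundant polarity genes were therefore within 0.1 of 0 after the correction, and the 3 ligands kept their sign. *Wnt10a* was at -1.06 after it, with limma p of 0.000342 and adjusted p = 0.391.

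The rest of the polarity machinery was read from lists of named genes. Of the 12 other core polarity genes, 11 were tested. All 11 had a lower mean in the cKO, against 60.3% of all genes tested. None met the criteria, which 2.47% of all genes met in the lower direction and 1.55% in the higher. The median log2 fold change of the 11 was -0.28 as deposited and -0.05 after the length correction. After it 7 of the 11 were lower, against 49.6% of all genes covered. The pseudokinase receptor gene *Ptk7* was the most abundant, at 132 ± 6.20 TPM in the control and 102 ± 23.8 TPM in the cKO (SD, n = 3), with a log2 fold change of -0.38. *Celsr2*, a paralog of *Celsr1*, was at 79.4, 102 and 72.6 TPM in the control and at 61.7, 61.2 and 70.3 TPM in the cKO replicates. Its groups did not overlap, yet its log2 fold change went from -0.38 to 0.02 with the correction. *Celsr3* did not exceed 0.25 TPM in any library and was left untested.

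Of the 7 genes of the Fat and Dachsous system, which gives polarity over longer distances, 6 were tested. Of these, 5 were lower on average, against 60.3% of all genes tested, and 4 after the length correction, against 49.6%. The criteria were met by 2, both lower, against 2.47% of all genes tested in that direction. The transcripts of *Fat1* and *Fat2*, which encode atypical cadherins, are 14814 and 14528 bases long. *Fat2* was at 14.3, 14.2 and 13.3 TPM in control replicates 1, 2 and 3 and at 5.86, 4.95 and 10.3 TPM in the cKO replicates, without overlap (log2 fold change -0.95, limma p of 0.00884), and its corrected change was -0.54 (limma p of 0.122). *Fat1* was at 61.9 ± 15.1 TPM in the control and 39.2 ± 11.9 TPM in the cKO (SD, n = 3), with overlap, and its log2 fold change went from -0.66 (limma p of 0.0408) to -0.25 (limma p of 0.379) with the correction. The call of *Fat1* was also lost without control replicate 1, control replicate 2, cKO replicate 1 or cKO replicate 2 (limma p between 0.0873 and 0.144), and that of *Fat2* was kept without each library. The median of the 6 tested genes was -0.50, and -0.10 after the correction.

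Of the 16 polarity effectors, all tested, 10 were lower on average, against 60.3% of all genes tested. Their median log2 fold change was -0.25 as deposited and -0.06 after the length correction. The criteria were met by 1 of the 16, against 4.02% of all genes tested. It was *Arhgef19*, which was at 65.0, 57.7 and 57.7 TPM in control replicates 1, 2 and 3 and at 31.9, 32.4 and 48.5 TPM in the cKO replicates, without overlap. Its log2 fold change was -0.69 (standard error 0.20, limma p of 0.0106, adjusted p = 1.00), and it was -0.56 (limma p of 0.0114) after the length correction. The limma p of *Arhgef19* stayed below 0.05 in each of the fits without one library. The GTPase genes *Rac1* and *Cdc42*, the most abundant of the list, had log2 fold changes of 0.15 and 0.06. In the calcium branch, 14 of 16 genes were tested, and 9 of these were lower on average, against 60.3% of all genes tested. The median log2 fold change of the 14 was -0.06 as deposited and 0.05 after the correction. The phospholipase gene *Plcb3* alone met the criteria, against 4.02% of all genes tested. Its log2 fold change was -0.52 (limma p of 0.0242) and -0.30 (limma p of 0.0387) after the correction. The call of *Plcb3* was lost without control replicate 1, control replicate 2 or cKO replicate 1 (limma p of 0.0764, 0.0651 and 0.0727). *Ppp3r1* and *Ppp3cb*, which encode calcineurin subunits, had log2 fold changes of 0.07 and 0.02. Adjusted p were 1.00 for each gene of these lists that met the criteria.

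The 19 genes of spindle orientation were all tested, with a median log2 fold change of -0.03 as deposited and 0.06 after the length correction. Of these, 12 were lower as deposited, against 60.3% of all genes tested, and 7 after the correction, against 49.6%. The criteria were met by 1 of the 19, against 4.02% of all genes tested. *Dync1h1*, the heavy chain of cytoplasmic dynein, was at 59.7 ± 6.65 TPM in the control and 41.5 ± 8.25 TPM in the cKO (SD, n = 3), without overlap, and its log2 fold change of -0.53 (limma p of 0.0268) was -0.11 (limma p of 0.586) after the length correction. The call was lost without control replicate 1, control replicate 2, cKO replicate 1 or cKO replicate 2 as well (limma p between 0.0677 and 0.0849). The polarity scaffold gene *Pard3* and the G protein gene *Gnai2*, the most abundant of the list, had log2 fold changes of -0.03 and -0.20.

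**Figure D5:**
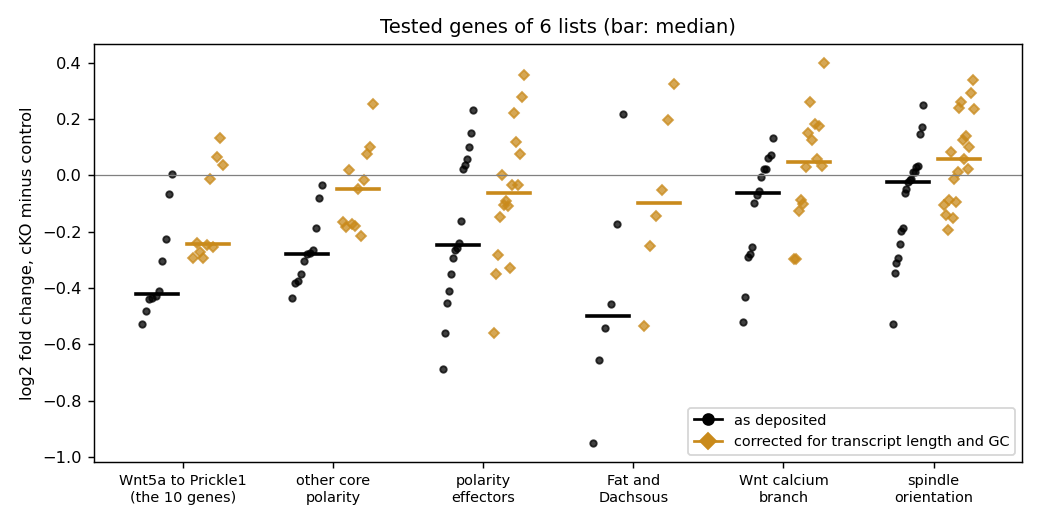
Log2 fold changes, cKO minus control, of the tested genes in 6 lists, with black points for the TPM as deposited and orange points for the values corrected for length and GC. Bars are medians. The medians of the 10 genes, the other core polarity genes and the Fat and Dachsous genes are at -0.42, -0.28 and -0.50 as deposited and at -0.25, -0.05 and -0.10 after the correction.

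The 10 genes varied together in part. Over the 6 libraries, 42 of the 45 pairs had a Pearson correlation above 0 on the log2(TPM + 1) scale, with a median of 0.62. Over all pairs of the 13719 genes tested, 61.6% were above 0 and the median was 0.20. These values pool both groups, so the difference between control and cKO is in them, as is the length trend of the libraries. The highest was 0.96 between *Wnt5a* and *Prickle1*, followed by 0.94 between *Wnt11* and *Vangl1* and 0.91 between *Vangl2* and *Celsr1*. The lowest was -0.37 between *Wnt5b* and *Ryk*. Among all tested genes, those with the pattern most like *Wnt5a* were *Fam110b*, *Zfp710* and *Atp1b1*, with Pearson correlations of 0.998, 0.996 and 0.993 over the 6 libraries. For *Ror2* they were *A230020J21Rik*, *Proca1* and *Shroom4* (0.998, 0.996 and 0.991), and for *Vangl2* *Tbc1d13*, *Ttc17* and *Surf6* (0.996, 0.987 and 0.984).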

How the data were processed

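The authors deposited 1 TPM value a gene (55487 genes) and library (6 libraries) in a single table, made from TruSeq libraries with SeqPrep, Sickle, HISAT2 and RSEM according to the methods, which name FPKM as the unit. The libraries sum to between 983952 and 993946. The submitters' processing notes name HISAT2 and StringTie. The genome build is not given in the sources used here, and depth is unknown because TPM keep none. Groups and replicate numbers came from the sample titles, whereas the deposited columns are numbered 1, 3 and 4 in both groups. From the deposited TPM, log2(TPM + 1) was fitted with limma 3.58.1 in R 4.3.3 (lmFit, and eBayes with a trend), without a block, over the 13719 genes whose mean reached 1 TPM, with Benjamini-Hochberg adjustment over all of them. Single values were compared by exact two-sided permutation. The length correction took from each library a smooth trend in its deviations, fitted by natural splines (4 degrees of freedom each) on log2 length and GC content of a gene's longest GENCODE transcript (GRCm38), for 13707 genes. All 10 members passed the filter. Named from the other lists were the genes that met the criteria and the 2 with the highest control mean, and *Wnt6*, *Celsr3*, *Fbxl14* and *Gm2670* were singled out after their values were seen. The members and lists were chosen with earlier results of these data known. Alternatives were another pseudocount, no filter, 3 scalings, the length correction, the replicate block, no trend, Student's test and leaving out each library in turn.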

Additional observations from a re-analysis of the deposited data

How the results depend on the processing

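The fit was repeated in 16 other ways. The number of the 10 genes that met the criteria was 1 as reported, 0 with quantile normalization, median-ratio scaling, the length and GC correction with or without the block, and Student's test on the TPM, 2 with the TPM of protein-coding genes rescaled after *Amelx* and *Ambn* were taken out (*Ror2* and *Wnt5a*), 3 with the replicate block (*Wnt5a*, *Wnt11* and *Vangl1*), and 0 to 4 with one library left out in turn. None of the 10 had an adjusted p below 0.05 in any fit, and the lowest was 0.517 by limma. Over all genes the number was 552 of 13719 as reported, 755 of 12625 with the rescaled TPM, 649 with quantile normalization, 648 with median-ratio scaling, 619 of 13707 after the correction, 459 with Student's test, 940 of 28254 without the filter, 1315 with the replicate block, 1110 when the block was joined to the correction, and 204 (without cKO replicate 1) to 1159 (without control replicate 3) with one library left out. Of the 552, 61.4% were lower, against 50.1% with quantile normalization, 86.2% with the rescaled TPM and 46% after the correction. The median of all genes, -0.07 as reported, was -0.12 with the rescaled TPM and between -0.18 and 0.02 with one library left out. The cause of these differences was not tested. The median log2 fold change of the 10 genes was -0.42 as reported, -0.25 after the correction with or without the block, and -0.48 to -0.31 without one library. The log2 fold change of *Ror1* turned to 0.026 with quantile normalization and 0.13 after the correction with or without the block, and ran from -0.33 to 0.073 without one library. *Vangl2* turned to 0.066 after the correction with or without the block. *Ryk* turned to -0.045 with the rescaled TPM and -0.00196 with Student's test, and ran from -0.091 to 0.092 without one library. The *Wnt5a* to *Wnt11* ratio difference, -0.09, was 0.000144 after the correction and -0.25 to 0.15 without one library, and that of *Wnt5a* to *Ror2*, -0.10, was -0.25 to 0.059. *Wnt5a*, *Wnt5b*, *Wnt11*, *Ror2*, *Vangl1*, *Celsr1* and *Prickle1* were lower in the cKO in all 16 fits. To see whether replicate numbers pair the libraries, deviations from the group means were correlated between control and cKO libraries. Same-numbered libraries gave -0.083 (replicate 1), 0.289 (replicate 2) and 0.398 (replicate 3), and libraries of unlike number gave -0.399 to 0.178. The same-numbered value was the highest for control replicates 2 and 3 and the lowest for control replicate 1. The methods speak of 3 pairs of replicates without saying what pairs them, so whether the numbers mark pairs remains unknown. With 3 pools a group, differences that lie within the confidence intervals given are not excluded.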
